A study of Homo sapiens with 6 samples.

Results

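VSIR and 9 other genes whose products let a tumour cell restrain immune cells were examined in SW480 cells with and without knockdown of the heparanase gene HPSE. SW480 is a human colorectal adenocarcinoma line, and heparanase is the endoglycosidase that cuts heparan sulfate chains. The 10 genes were VSIR, CD274, CD276, VTCN1, PVR, NECTIN2, LGALS9, CD47, ENTPD1 and NT5E. VSIR and ENTPD1 were chosen by their change between SW480-KD1 and SW480-NC, as they stand among the genes that the study listed as changed in these same libraries, so their values here are a description and carry no p-value. The other 8 were chosen for what their products do. Of the 10, 7 had a row of their own in the deposited expression table, and 6 of these passed the filter of a mean of at least 10 normalized counts over the 6 libraries. PVR, LGALS9 and ENTPD1 had no row under their own Ensembl identifier and were not analysed here under that name. ENTPD1 was followed only through a locus built by the transcript assembler.

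The knockdown libraries are labelled SW480-45 with an HPSE-knockdown genotype, and they were taken to be the SW480-KD1 cells of the study's methods, a match that the labels do not state. The SW480-KD1 group was made with a lentivirus carrying Cas9 and puromycin resistance, puromycin selection, and a second virus with EGFP and the KD1 guide RNA against exon 4 of HPSE. The control group, SW480-NC, carried the same Cas9 and a control guide RNA with EGFP. Each group had 3 libraries, described as independent experiments. Whether SW480-KD1 was 1 clone or a pool was not given in the sources used here. RNA was sequenced from whole cultures, so a larger number of cells expressing a gene and more of its RNA per cell cannot be told apart.

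The 6 libraries held 33221323 to 39802365 reads over 59192 features. HPSE itself had 136, 172 and 146 normalized counts in SW480-KD1 replicates 1, 2 and 3, against 269.9, 295 and 246 in SW480-NC. The knockdown libraries thus kept 56.1% of the control RNA level, with no overlap (log2 fold change −0.83, SE 0.14, adjusted p = 0.0547 by limma and 0.000948 by DESeq2). The study checked its knockdown at the protein level by western blot. The RNA counts here do not measure how much heparanase protein was left. Of the epithelial markers, EPCAM and KRT8 were abundant in every library, with means of 17564 and 75512 normalized counts in SW480-KD1 and 18657 and 87410 in SW480-NC, whereas the intestinal adhesion genes GPA33 and CDH17 were at or near 0 in both groups. KRT20, a keratin of differentiated intestinal epithelium, fell from 7952 to 4541 normalized counts (log2 fold change −0.81, adjusted p = 0.00719 by limma). It was the 1 call among 7 tested epithelial markers, against 0.802% of all features called by limma. Of the 7, 6 had a log2 fold change below 0, against 50.7% of all features. In 4 of the 7 the groups did not overlap, against 23.4% of all features. The markers summed to 123150 to 132079 normalized counts in SW480-KD1 and 141396 to 150924 in SW480-NC, without overlap. KRT8 alone made up most of this sum in both groups. The part of this difference in the members' values was not tested.

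Immune checkpoint ligands are membrane proteins that lower the activity of T cells, natural killer cells or macrophages when they meet a receptor on those cells. VSIR encodes VISTA, and CD274 encodes PD-L1, the ligand of PD-1. CD276 and VTCN1 encode the B7 family members B7-H3 and B7-H4. NECTIN2 and PVR are adhesion proteins that bind the inhibitory receptor TIGIT and the activating receptor DNAM-1. CD47 binds SIRPA on macrophages and restrains phagocytosis, and LGALS9 encodes the secreted lectin galectin-9. ENTPD1 (CD39) and NT5E (CD73) are cell surface enzymes that act in turn, the former breaking ATP down to AMP and the latter turning AMP into adenosine, which dampens lymphocytes through adenosine receptors.

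All positions are from GRCh38 with GENCODE 29. VSIR (ENSG00000107738) occupies chr10:71747559-71773498 on the minus strand, wholly within the span of CDH23 (chr10:71396934-71815947), a cadherin gene on the plus strand with which it shares 0 exon bases. CD274 (ENSG00000120217) lies at chr9:5450503-5470566 on the plus strand. The sequences just upstream of the RefSeq starts of these 2 genes are shown because VSIR had the largest difference of the tested members and CD274, the ligand best known as a drug target, was the scarcest of them, and because the stretches contrast in composition. Both come from RefSeq on GRCh38.p14, read 5′ to 3′ along the gene's own strand, and stop before any annotated exon. In VSIR (chr10:71773521-71773770) capitals mark the GC box GGGCGG on either strand, and in CD274 (chr9:5450292-5450502) they mark the core of the interferon response element, GAAA followed by 2 bases of any kind and GAAA, of which 2 overlapping matches lie on the other strand.
VSIR: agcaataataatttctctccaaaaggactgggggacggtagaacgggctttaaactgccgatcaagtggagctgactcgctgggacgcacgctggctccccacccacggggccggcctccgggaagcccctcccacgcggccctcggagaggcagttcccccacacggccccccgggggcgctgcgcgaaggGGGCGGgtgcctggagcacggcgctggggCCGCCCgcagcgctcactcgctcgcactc
CD274: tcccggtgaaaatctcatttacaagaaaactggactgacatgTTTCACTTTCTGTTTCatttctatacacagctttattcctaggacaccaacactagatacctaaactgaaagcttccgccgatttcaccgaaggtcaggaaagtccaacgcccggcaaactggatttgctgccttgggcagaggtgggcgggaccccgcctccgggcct

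The VSIR stretch was 69.6% G or C and the CD274 stretch 49.8%. In the whole windows, which run on past the start and were searched on both strands, 45.0% of 35116 RefSeq promoters held a GC box, whereas 3.57% held the interferon response core. Among the 10 genes that core was found in CD274 and LGALS9. VSIR, CD274, CD276, NECTIN2, CD47 and NT5E each held at least 1 GC box, and VTCN1, PVR, LGALS9 and ENTPD1 held none. These matches describe letters in a window and are no measure of binding.

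VSIR was higher in the knockdown. It had 209, 249 and 162 normalized counts in SW480-KD1 replicates 1, 2 and 3 and 85.8, 86.0 and 102 in SW480-NC. The lowest knockdown library stood above the highest control library, and the knockdown libraries were the more spread. The means were 207 ± 43.6 and 91.2 ± 9.20 (SD, n = 3 each), a ratio of 227% and a log2 fold change of 1.15 (SE 0.19). These values rested on 172 to 276 reads per knockdown library and 82 to 96 per control library. Fits that each dropped 1 library gave log2 fold changes from 1.01, without SW480-KD1 replicate 2, to 1.32, without SW480-KD1 replicate 3. In the limma fit VSIR was the 1 gene of the 6 tested members with an adjusted p under 0.05, against 0.802% of all 21703 features (0.332% higher and 0.47% lower in SW480-KD1), but this is the contrast that brought it onto the list, so nothing is read from that count. By edgeR 0 of the 6 passed, against 0.627% of all features. By DESeq2, which gave CD274 no adjusted p, VSIR and NT5E passed, against 4.55% of the 16618 features that had one. As with limma, nothing is read from the pass of VSIR. In each of the 6 limma fits that dropped 1 library, 0 of the 6 passed.

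**Figure D1:**
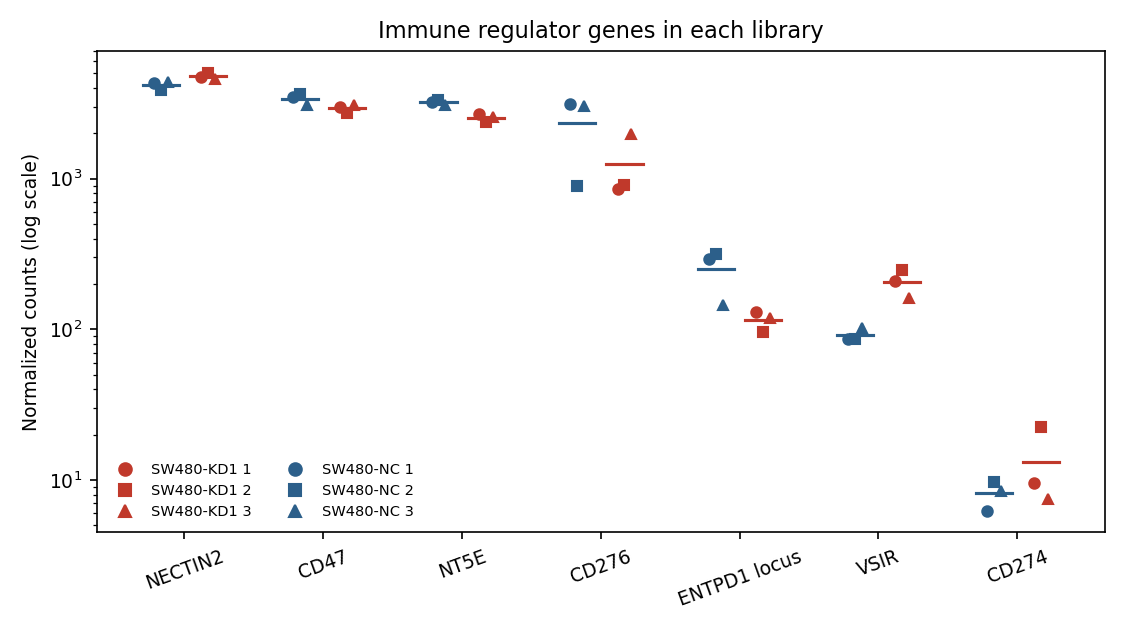
Normalized counts (log axis) of the 7 measured features in each library, with SW480-NC in blue and SW480-KD1 in red, the marker shape giving the replicate number and the bars the group means; VTCN1, at or under 3 reads everywhere, is left out. VSIR lies at 162 to 249 in SW480-KD1 and 85.8 to 102 in SW480-NC. CD276 shows the widest scatter in SW480-NC. In SW480-KD1 the scarce CD274 spreads wider on the log axis (7.54 to 22.6) than CD276 (859 to 1977).

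CDH23, the gene that encloses VSIR, had much lower counts, with 16.9, 42.4 and 25.4 normalized counts in SW480-KD1 and 15.7, 11.6 and 10.6 in SW480-NC, from 10 to 47 reads per library. The groups did not overlap, although SW480-KD1 replicate 1 lay close to SW480-NC replicate 1. The log2 fold change of 1.02 (SE 0.41) missed the threshold with an adjusted p of 0.282 by limma. The library kit was not described as keeping strand, so intronic reads of CDH23 and reads of VSIR could share the locus. The part of CDH23 in the VSIR difference was not tested.

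VISTA is best known from myeloid cells and T cells. Of 20 leukocyte markers 12 had a row and 7 passed the filter. None of the 7 had an adjusted p under 0.05 by limma, against 0.802% of all features. CD4 had means of 36.5 and 19.3 normalized counts (log2 fold change 0.89, adjusted p = 0.258 by limma), and LYZ, which encodes lysozyme, had 61218 and 69596 (log2 fold change −0.18, adjusted p = 0.133 by limma). LYZ dominated their summed level, which was 59922 to 62547 normalized counts in SW480-KD1 and 67646 to 72313 in SW480-NC. Without LYZ the other 11 summed to 357 to 478 in SW480-KD1 and 358 to 482 in SW480-NC, almost the same range. The pan-leukocyte gene PTPRC and the T cell genes CD3D and CD3E had no row of their own. Such a missing row is no sign of absent expression, since the epithelial genes CDH1 and KRT18 also had none. Fibroblast markers summed to 287 to 387 in SW480-KD1 and 231 to 272 in SW480-NC, without overlap, with COL1A1 at a log2 fold change of 0.48. Of 8 listed, 2 were tested and 0 had an adjusted p under 0.05 by limma, against 0.802% of all features. An unadjusted p under 0.05 was found for 1, against 16.2%. In each of the 2 the groups overlapped, whereas 23.4% of all features did not overlap. Endothelial markers overlapped between groups, at 159 to 251 and 131 to 235. The part of these markers in the VSIR difference was not tested.

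The genes whose profile over the 6 libraries came closest to that of VSIR were sought by the root mean square difference of log2 values centred on each gene's mean, among 9703 features. NUPR1, a stress-induced nuclear protein, came closest at 0.100, with a log2 fold change of 1.14. MDK, which encodes the heparin-binding growth factor midkine, followed at 0.135 with a log2 fold change of 0.91. DEF6, a guanine nucleotide exchange factor of immune cells, stood at 0.155 with a log2 fold change of 1.27. DDIT4, an inhibitor of mTORC1 signalling, stood at 0.165 and CNTNAP1, a neuronal adhesion protein, at 0.174. All 5 shared the split between groups by which VSIR was chosen, so the likeness is a description over 6 libraries.

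**Figure D2:**
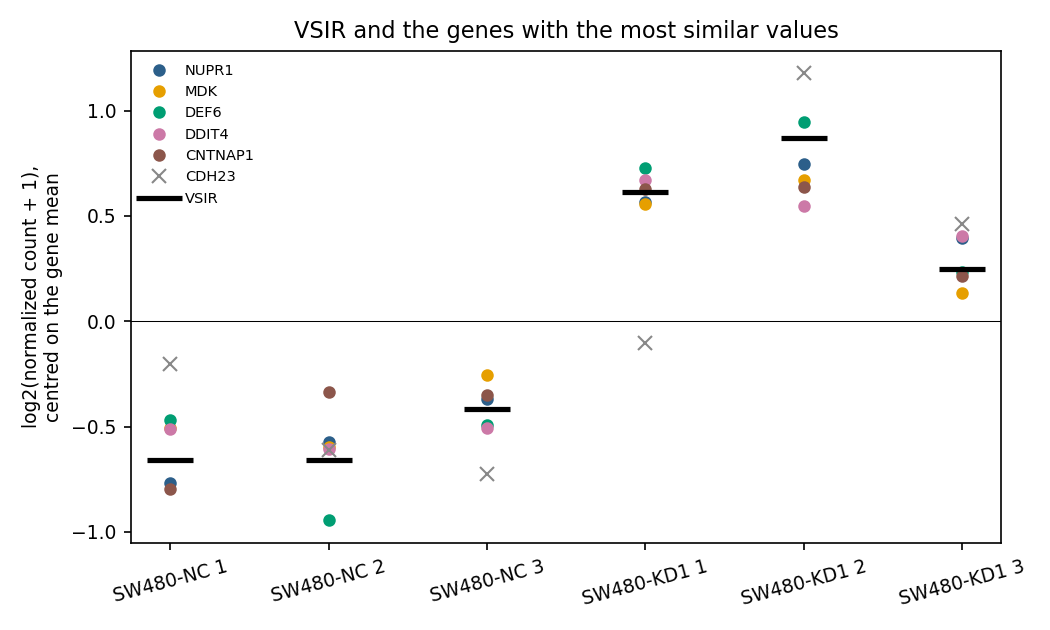
Level of VSIR (black bars), its 5 closest genes (dots) and CDH23 (crosses) in each library, as log2(normalized count + 1) minus the gene's own mean over the 6 libraries. VSIR and the 5 genes lie above their means in the 3 SW480-KD1 libraries and below them in the 3 SW480-NC libraries.

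CD274, which encodes PD-L1, was scarce and did not pass the test. Its normalized counts were 9.49, 22.6 and 7.54 in SW480-KD1 and 6.28, 9.66 and 8.48 in SW480-NC. SW480-KD1 replicate 2 was high and the other 5 libraries overlapped. The log2 fold change was 0.51 (SE 0.53, 95% interval −0.73 to 1.75, adjusted p = 0.674 by limma), and it was 0.07 without that library. The counts ran from 6 to 25 reads per library, so at this depth neither a rise as large as that of VSIR nor a fall could be told from no difference.

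Genes known to control PD-L1 were also followed. Of 29 listed, 22 were tested and 0 had an adjusted p under 0.05 by limma or DESeq2, against 0.802% and 4.55% of all features. Of these, 11 had a log2 fold change above 0 and 11 below (49.3% and 50.7% over all features), with a median of −0.01 against −0.00 for all features, and 5 had an unadjusted p under 0.05, against 16.2% of all features. In 10 of the 22 the groups did not overlap, against 23.4%. HIP1R, which takes PD-L1 to the lysosome, had means of 3217 ± 242 in SW480-KD1 and 2566 ± 71.9 in SW480-NC, with a log2 fold change of 0.32 (SE 0.08) and an adjusted p of 0.123 by limma. EGFR, the epidermal growth factor receptor, had 3471 ± 147 and 4188 ± 134 (log2 fold change −0.27, adjusted p = 0.127 by limma). The interferon signalling genes JAK1 (log2 fold change −0.10, adjusted p = 0.445 by limma) and IRF1 (0.37, adjusted p = 0.328 by limma) did not pass either.

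CD276 (ENSG00000103855, chr15:73683966-73714518, plus strand) was the most variable of the tested members by the SD within groups on the log2 scale. It had 859, 903 and 1977 normalized counts in SW480-KD1 and 3149.6, 889 and 3016 in SW480-NC. SW480-NC replicate 2 fell among the low knockdown libraries and SW480-KD1 replicate 3 lay between the extremes. Group means were 1247 ± 633 and 2352 ± 1268, and the log2 fold change of −0.82 (SE 0.52, 95% interval −2.03 to 0.39) had an adjusted p of 0.480 by limma, 0.425 by edgeR and 0.539 by DESeq2. Leaving out SW480-NC replicate 2 gave −1.42.

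With 815 to 3011 reads per library, counting error is small beside this scatter. The SD of CD276 within groups was 0.87 on the log2 scale, against a median of 0.113 for the 4870 features of like level, and only 0.616% of these had an SD as high. Among immune ligands of the lists, HHLA2 (0.70) and BTN3A2 (0.84) also had a high SD within groups, and MYC, a regulator of PD-L1 and CD47, had 1.22. MYC ran from 1979 to 8721 normalized counts in SW480-KD1 and from 2145 to 11556 in SW480-NC. The cause of this scatter was not tested.

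VTCN1 (ENSG00000134258, chr1:117143587-117210960, minus strand) was at the limit of detection. It had 3 reads in SW480-KD1 replicate 3, 3 reads in SW480-NC replicate 1 and 0 in the other 4 libraries. A count of 0 allows up to 3 reads, or 2.71 to 3.18 normalized counts, so no fold is given.

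Of 18 further B7 and butyrophilin family genes and partners of VISTA, 7 were tested. None of the 7 had an adjusted p under 0.05 by limma or DESeq2, against 0.802% and 4.55% of all features. Likewise 0 had an unadjusted p under 0.05 by limma, against 16.2%. Of the 7, 3 had a log2 fold change above 0 and 4 below (49.3% and 50.7% over all features), with a median of −0.00. HHLA2, the B7 family member B7-H7, had 187 ± 78.5 normalized counts in SW480-KD1 and 306 ± 129 in SW480-NC (log2 fold change −0.70, SE 0.43, adjusted p = 0.465 by limma). BTN2A2 had 393 ± 28.2 and 289.8 ± 95.0 (log2 fold change 0.49, adjusted p = 0.354 by limma). LRIG1, a described VISTA partner, had a log2 fold change of −0.00, and the partners SELPLG and IGSF11 were below the filter, with means of 3.49 and 6.09 in SW480-KD1 and 3.07 and 10.1 in SW480-NC.

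NECTIN2 (ENSG00000130202, chr19:44846175-44889228, plus strand) was the most abundant member. Its normalized counts were 4731, 5052 and 4561 in SW480-KD1 and 4296, 3859 and 4388 in SW480-NC. The groups did not overlap, yet the gap between them was small beside their spread, with means of 4781 ± 249 and 4181 ± 282. The log2 fold change of 0.19 (SE 0.08, 95% interval 0.013 to 0.38) had an adjusted p of 0.280 by limma. The antisense gene AC011481.2 shares 128 exon bases with NECTIN2 and had at most 3 reads in any library.

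The nectin family and its partners held 5 tested genes of 7 listed. None had an adjusted p under 0.05 by limma (0.802% of all features). An unadjusted p under 0.05 was found for 2 (16.2% of all features), and 3 had groups that did not overlap (23.4%). The log2 fold change was above 0 in 4 of the 5 (49.3% of all features), with a median of 0.10. NECTIN4, also a TIGIT ligand and an epithelial adhesion protein, had 321, 319 and 350.5 normalized counts in SW480-KD1 and 234, 194 and 221 in SW480-NC. All 3 knockdown libraries were higher, at 153% of the control mean (log2 fold change 0.61, SE 0.12). Its adjusted p was 0.0814 by limma and 0.00962 by DESeq2, on opposite sides of the threshold. CADM4 had a log2 fold change of 0.41 (adjusted p = 0.252 by limma), NECTIN1 0.10 (adjusted p = 0.659) and AFDN, which ties nectins to actin, 0.05 (adjusted p = 0.883).

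CD47 (ENSG00000196776, chr3:108043094-108091862, minus strand) had 2979, 2746 and 3092 normalized counts in SW480-KD1 and 3469, 3619 and 3099 in SW480-NC. The groups only just failed to overlap, at 3092 against 3099. Means were 2939 ± 176 and 3396 ± 267, and the log2 fold change of −0.21 (SE 0.09, 95% interval −0.41 to −0.0063) had an adjusted p of 0.295 by limma. SIRPA, whose product is the receptor of CD47, was present in these epithelial cells, at 1587 to 1838 normalized counts in SW480-KD1 and 1579 to 1873 in SW480-NC (log2 fold change 0.03, adjusted p = 0.923 by limma).

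Other signals of phagocytosis and other galectins held 14 tested genes of 17 listed. Of the 14, 0 had an adjusted p under 0.05 by limma, against 0.802% of all features. With DESeq2 2 passed, against 4.55% of all features, namely the galectin genes LGALS3 and LGALS1, with opposite signs. LGALS3 had 842, 676 and 613 normalized counts in SW480-KD1 and 1246, 1142 and 1035 in SW480-NC, or 62.3% of the control mean (log2 fold change −0.69, SE 0.14). Its adjusted p was 0.0814 by limma and 0.00129 by DESeq2. LGALS1 had 142, 157 and 199 in SW480-KD1 and 103, 83.1 and 106 in SW480-NC, or 171% (log2 fold change 0.76, SE 0.18, adjusted p = 0.116 by limma and 0.0285 by DESeq2). In both genes the 3 libraries of 1 group lay apart from the 3 of the other. LGALS4, the gut galectin gene, had a log2 fold change of −0.06 (adjusted p = 0.792 by limma) and CALR, whose product calreticulin is an engulfment signal, one of −0.04 (adjusted p = 0.799 by limma). Over the 14 genes 6 had an unadjusted p under 0.05 (2 higher and 4 lower in SW480-KD1), against 16.2% of all features, and 5 had groups that did not overlap, against 23.4%. Of the 14 log2 fold changes 5 were above 0 and 9 below, with a median of −0.05.

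NT5E (ENSG00000135318, chr6:85449584-85495791, plus strand) had the lowest adjusted p of the 5 tested members that were not chosen by the contrast. Its normalized counts were 2695, 2369 and 2553 in SW480-KD1 and 3203, 3328 and 3079 in SW480-NC. All knockdown libraries lay below all control libraries, at means of 2539 ± 164 and 3203 ± 124, or 79.3% of the control. The log2 fold change was −0.34 (SE 0.08, 95% interval −0.52 to −0.16). The adjusted p was 0.109 by limma and 0.117 by edgeR, which miss the threshold, and 0.0441 by DESeq2, which passes it. Fits that each dropped 1 library gave values from −0.38 to −0.29.

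The assembler locus that carries the name of ENTPD1 had lower values in the knockdown. It had 131, 95.7 and 119 normalized counts in SW480-KD1 and 291, 316 and 145 in SW480-NC. The groups did not overlap, but SW480-NC replicate 3 lay close to the knockdown libraries. Means were 115 ± 17.8 and 251 ± 92.1, or 45.9% of the control, and the log2 fold change was −1.05 (SE 0.30), or −1.40 without that replicate. The same locus also carries AL365273.1, CC2D2B and other names, so its reads cannot be assigned to ENTPD1 (chr10:95711779-95869695, plus strand). ENTPD1-AS1, on the other strand and sharing 454 exon bases with ENTPD1, had 772 ± 86.3 and 799.9 ± 60.5 normalized counts (log2 fold change −0.05, adjusted p = 0.853 by limma).

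**Figure D3:**
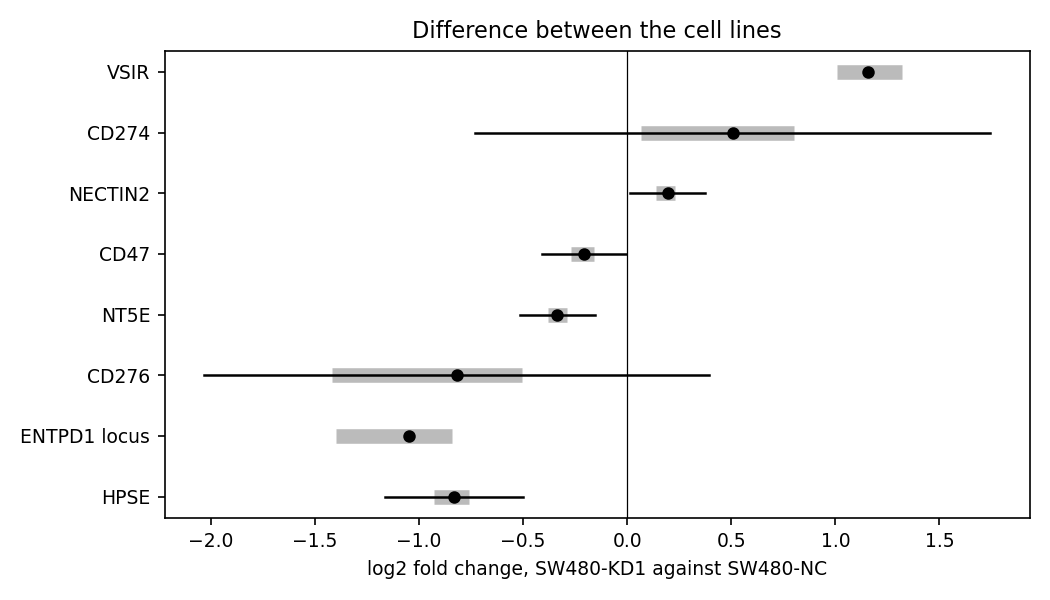
Log2 fold changes (SW480-KD1 over SW480-NC) of the members, the ENTPD1 locus and HPSE, with the thin line the 95% interval from limma (not drawn for VSIR and the ENTPD1 locus, which the same contrast brought onto the list) and the grey bar the range over the 6 fits that each leave out 1 library. NT5E sits at −0.34 with a narrow range, and CD276 ranges from −1.42 to −0.51.

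Of 41 other genes of extracellular ATP and adenosine, 24 had a row and 16 were tested. Against 0.802% of all features, 1 of the 16 had an adjusted p under 0.05 by limma. This gene was SLC28A3, which encodes the concentrative nucleoside transporter CNT3 that carries adenosine into cells. It had 379.6, 385 and 376 normalized counts in SW480-KD1 and 749, 865 and 779 in SW480-NC, so the knockdown libraries were nearly alike and all lay far below the control libraries. The level fell to 47.6% of the control (log2 fold change −1.07, SE 0.10), with an adjusted p of 0.00719 by limma, 0.00856 by edgeR and 5.82e-13 by DESeq2. The call stayed when each library was left out in turn (adjusted p 0.0292 to 0.0385 by limma).

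The remaining genes of ATP and adenosine handling gave smaller or less certain differences. ENTPD8, an ectonucleotidase of the same family as ENTPD1, had 15.8, 19.0 and 15.1 normalized counts in SW480-KD1 and 6.28, 3.86 and 3.18 in SW480-NC (log2 fold change 1.73, SE 0.47). It rested on 3 to 21 reads per library and its adjusted p was 0.148 by limma. ACP3, an acid phosphatase that also makes adenosine from AMP, had a log2 fold change of 0.53 (adjusted p = 0.241 by limma). ADORA2B, which encodes an adenosine receptor, had 332 ± 21.8 and 339 ± 59.9 (log2 fold change −0.02, adjusted p = 0.970 by limma). DPP4, whose product anchors adenosine deaminase at the cell surface, had a log2 fold change of −0.01, and ENTPD6 had 0.02. Over the 16 genes 3 had an unadjusted p under 0.05 and 3 had groups that did not overlap, against 16.2% and 23.4% of all features, and 9 log2 fold changes were above 0 and 7 below, with a median of 0.09.

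**Figure D4:**
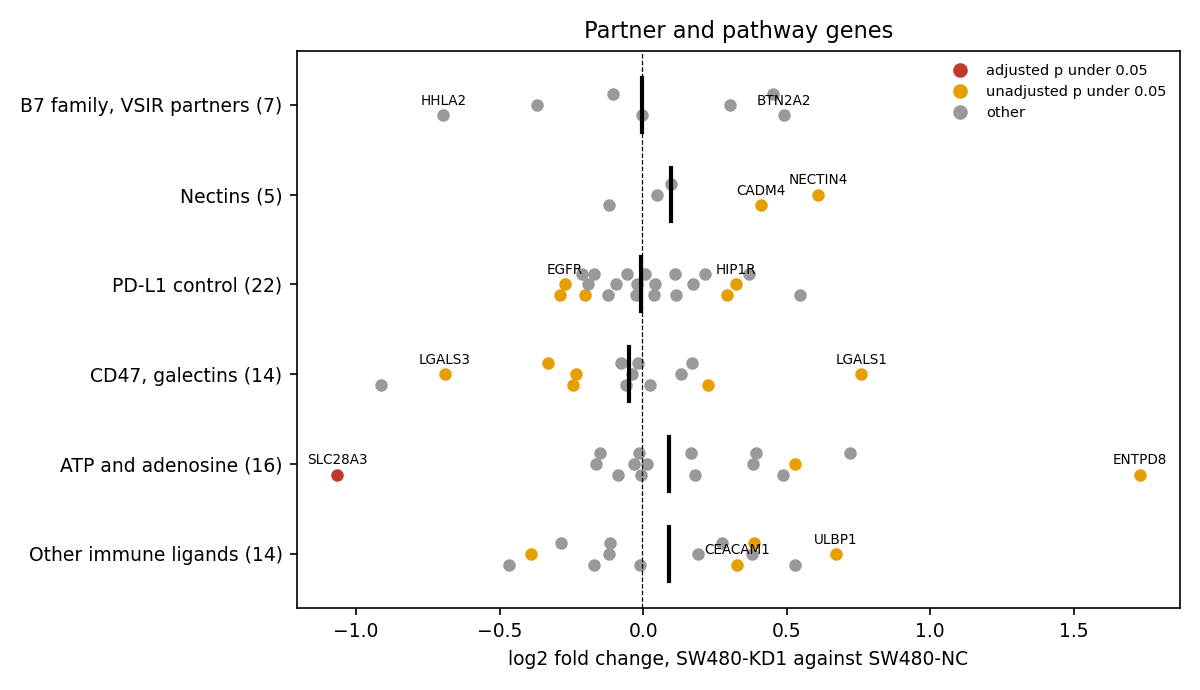
Log2 fold change of each tested gene in 6 of the 7 pathway lists, with adjusted p under 0.05 by limma in red, unadjusted p under 0.05 in orange and the rest in grey; the black bar is the list's median and the dashed line the median of all features. SLC28A3, at −1.07, is the 1 red point, and the list medians lie between −0.05 and 0.10.

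Levels were compared between genes per kilobase of all annotated exons, a length that need not match the expressed transcript. Some reads of a gene may stand under assembler loci, so these levels are approximate. In SW480-NC NECTIN2 had 1116 ± 75.4 normalized counts per kilobase, NT5E 707 ± 27.5, CD276 424 ± 229, CD47 413 ± 32.5, VSIR 17.8 ± 1.79 and CD274 1.98 ± 0.418. The corresponding levels in SW480-KD1 were 1276 ± 66.6, 560.1 ± 36.1, 225 ± 114, 357 ± 21.4, 40.3 ± 8.51 and 3.21 ± 1.99. In both groups the ranges of the neighbours CD276 and CD47 overlapped. In SW480-KD1 CD276 had the lower mean of this pair, and only its replicate 3 (357) reached the range of CD47. The ranges of the other neighbours in the order of SW480-NC were apart. VSIR was a low-level gene in both groups, below CD47 and above CD274.

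Over the 5 tested members not taken from this contrast, 0 had an adjusted p under 0.05 by limma, against 0.802% of all features. Of these 5, 3 (NECTIN2, CD47 and NT5E) had an unadjusted p under 0.05, against 16.2% of all features. The same 3 had groups that did not overlap, against 23.4% of all features. NECTIN2 had the higher values in SW480-KD1 (8.1% of the 21703 features passed the unadjusted threshold in that direction and 11.4% did not overlap). CD47 and NT5E had the lower values (8.15% and 12.0%). The 7 pathway lists held 158 genes, of which 79 were tested. Of the 79, 1 had an adjusted p under 0.05 by limma, against 0.802% of all features. An unadjusted p under 0.05 was found for 20 (25.3%), against 16.2% of all features. Of these 79 genes, 40 had a log2 fold change above 0 and 39 below, with a median of 0.01.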

How the data were processed

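RNA from 3 SW480-KD1 and 3 SW480-NC libraries was sequenced by the authors after preparation with the NEBNext Ultra RNA kit. The submitters' processing notes name bcl2fastq, HISAT2, DESeq2 and the GRCh38 build. For the study's list of changed genes, the paper's methods name Cuffdiff instead. That list asked for at least a 2-fold change and a p-value under 0.05 by Cuffdiff, a rule unlike the one used here. The deposited table gives a normalized signal per feature, that is, read counts divided by size factors. Whole reads were recovered from 100% of its values (tolerance 0.01). Of its 59192 features, 33265 were assembler loci without a position.

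Features whose mean reached 10 normalized counts were tested on log2(value + 1), a scale that understates the change of low genes, with limma 3.58.1 in R 4.3.3 and Benjamini-Hochberg adjustment over 21703 features (threshold 0.05). edgeR 4.0.16 and DESeq2 1.42.0 were run on the recovered reads. DESeq2 gave an adjusted p to 16618 of the features, and its shares of all features are taken over these. Genes without one were counted as not passing, among them CD274, CDH23, ENTPD8, BTN1A1, LGALS7 and LGALS7B. The other alternatives were a pseudocount of 5, no filter, a mean of at least 50, quantile normalization, a replicate block and leaving out each library. The methods were tested on simulated data.

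The members and lists were chosen with earlier results of these data known. Beside the members, HPSE and overlapping genes, the text names every called list gene and the 5 genes closest to VSIR. It also names, in each list, the 2 genes with the smallest p-values and the 2 with the highest level per kilobase. Of the markers only some are named, among them KRT20 as a call and GPA33 and CDH17 for their low counts. IRF1, SELPLG, IGSF11, SIRPA, ADORA2B, ACP3 and PDCD1 were added for their roles after their values were seen. P-values set a difference against the spread between these libraries, and read floors cover counting error only. The libraries of a group repeat the same cell line, and the study's other knockdown line is not among them. Differences between lines or guides are therefore not covered by the p-values. The members' identifiers, exons and overlaps come from GENCODE 29 and promoter windows from RefSeq (GRCh38.p14).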

Additional observations from a re-analysis of the deposited data

How the results depend on the processing

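Of the 6 tested members, 1 (VSIR) had an adjusted p under 0.05 by limma. VSIR was brought onto the list by this same contrast, so nothing is read from its place in this count. This count was 0 with quantile normalization, 0 with edgeR, 2 with DESeq2 (VSIR and NT5E), 0 with the replicate block, and 0 in each of the 6 fits without 1 library. In the pathway lists, the count of 1 became 2 without the filter (LGALS3 was added), 4 with DESeq2 (NECTIN4, LGALS3 and LGALS1 were added) and 0 with the replicate block, where SLC28A3 had an adjusted p of 0.0615 by limma. It was 1 in every fit without 1 library. Over all features 174 were called, against 756 with DESeq2, 12 with the replicate block and 29 (without SW480-NC replicate 1) to 93 (without SW480-NC replicate 3) with 1 library left out. Libraries with the same number shared only the number: the correlations of their deviations from the group means were 0.0025, −0.020 and 0.0074. Of 439 values for 34 named genes under the alternatives, 413 were counted as unchanged and 17 changed sign. Unchanged meant the same direction and the same side of the threshold. For VSIR and the ENTPD1 locus it meant the same direction and a shift smaller than the SD within groups. Their side of the threshold did not enter. The sign changes were those of genes with log2 fold changes near 0 or a large spread. DPP4 had 0.056 with quantile normalization and 0.0022 with edgeR. With 1 library left out, log2 fold changes ran from −0.10 to 0.13 for AFDN, −0.069 to 0.016 for CALR, −0.064 to 0.045 for DPP4, −0.048 to 0.14 for ENTPD6, −0.15 to 0.037 for LGALS4, −0.13 to 0.12 for LRIG1 and −0.93 to 0.45 for MYC. The cause of these differences between settings was not tested. CD274, VTCN1, CDH23 and ENTPD8 had at most 47 reads in any library, and the part of depth in their results was not tested.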

Other observations

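Other ligands by which epithelial cells meet immune cells gave a mixed picture. Of 30 listed, 14 were tested and 0 had an adjusted p under 0.05 by limma or DESeq2, against 0.802% and 4.55% of all features. Another 4 of the 14 had an unadjusted p under 0.05 only, against 16.2% of all features. CEACAM1, an adhesion protein that also inhibits lymphocytes, had 654 ± 30.4 normalized counts in SW480-KD1 and 522 ± 35.2 in SW480-NC (log2 fold change 0.33, SE 0.10, adjusted p = 0.179 by limma). ULBP1, a ligand of the activating receptor NKG2D, had 186 ± 22.5 and 118 ± 34.1 (log2 fold change 0.67, SE 0.22, adjusted p = 0.202 by limma). HLA-E, the ligand of NKG2A, had 3472 ± 23.7 and 3920.4 ± 327 (log2 fold change −0.17, adjusted p = 0.329 by limma), and TGFB1 had a log2 fold change of −0.12 (adjusted p = 0.635 by limma). In 9 of the 14 genes the groups did not overlap, against 23.4% of all features. Of 16 lymphocyte and myeloid receptors of checkpoint and related ligands, 6 had a row and 1, TREML2, was tested, with 141 ± 4.28 and 114 ± 12.5 normalized counts (log2 fold change 0.30, adjusted p = 0.343 by limma). PDCD1, which encodes PD-1, was below the filter with means of 12.3 and 6.78.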
